A study of Mus musculus with 16 samples.

Results

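Of the 21482 H3K4me3 peaks of EA-HFSCs, 289 (1.35%, 95% Wilson interval 1.2 to 1.51%) overlapped an H3K4me3 peak of LC-HFSCs by at least 1 bp and no H3K4me3 peak of either non-HFSC population. These are called HFSC-only peaks here. The number depends on the calling limit: it was 99 when peaks of every list had to score at least 100, 49 when only the HFSC lists had to, and 527 when each list was reduced to as many top peaks as the smallest holds. The sets of 99 and 527 also hold peaks that overlap a non-HFSC H3K4me3 peak taken out by the limit. The 289 peaks were chosen from the 14267 EA-HFSCs peaks with an LC-HFSCs peak, of which they are 2.03% (background share of that step, 289 of 14267). The other 13978 overlapped a non-HFSC peak, and 13529 EA-HFSCs peaks had a peak in all 4 populations. A missing nEA-HFSCs peak alone left 370 peaks and a missing nLC-HFSCs peak alone left 657. The 12 peak lists of the series hold 219698 peaks in all. In the opposite direction, 1128 of the 24498 nEA-HFSCs peaks (4.60%, 4.35 to 4.87%) overlapped an nLC-HFSCs peak and no HFSC peak.

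The cells came from skin of CD1 x FVB mice, which the labels give as male, while the study's methods name animals of either sex for most of the work. EA-HFSCs (PD22-25, early anagen) and LC-HFSCs (PD38-44, late catagen) were sorted as CD34+/α6-integrin+ cells, which are the stem cells of the hair follicle bulge. Their counterparts nEA-HFSCs and nLC-HFSCs were sorted at the same ages as CD34-/α6-integrin+ cells, mostly epidermis and lower outer root sheath. Each sample pooled 15 to 20 mice, and the reads of repeat experiments were pooled before peaks were called against IgG of the same population. There is therefore 1 list for each population and mark, no difference has a replicate check, and no test was made. Intervals cover counting error only, and the depth behind a peak is not known from the lists. By the study's account the H3K27me3 and H3K9me3 libraries were not sequenced to saturation, so that a peak missing from a list is not the absence of a mark. Each peak has a score, the negative log10 of its p-value multiplied by 10, which ranks peaks within a list and is not compared between lists. The gate holds bulk cells, so that a mark in fewer cells and less of a mark per cell cannot be told apart. The same CD34 gate defined both HFSC samples.

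H3K4me3 is laid down by SET1 and MLL methyltransferases and marks active and poised promoters, mostly at CpG islands, and in weaker form some enhancers. H3K27me3 is laid down by Polycomb repressive complex 2 and marks silenced developmental genes. Regions with both marks are called bivalent when the same cells carry both, which lists of pooled cells cannot show. The bulge keeps its stem cells through SOX9, LHX2, NFATC1, TCF3 and related factors, and its cells secrete inhibitors of Wnt and BMP signalling.

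The sequence under 4 of the peaks is shown because the results below return to these peaks. Each is the middle 300 bases of the peak on the plus strand of mm9, with CpG dinucleotides in capitals. The first belongs to Cd34, in an intron of the gene, where scores were highest. The second lies in an intron of Wwp2, with Psmd7 as the gene of nearest start, and had the highest score of the peaks farther than 3000 bp from a gene start. The third belongs to the peak over the start of Angptl7, and the last lies in an intron of Gfra2, 1109 bp from the start, and carried H3K27me3 in all 4 populations.
Cd34 chr1:196767275-196767574: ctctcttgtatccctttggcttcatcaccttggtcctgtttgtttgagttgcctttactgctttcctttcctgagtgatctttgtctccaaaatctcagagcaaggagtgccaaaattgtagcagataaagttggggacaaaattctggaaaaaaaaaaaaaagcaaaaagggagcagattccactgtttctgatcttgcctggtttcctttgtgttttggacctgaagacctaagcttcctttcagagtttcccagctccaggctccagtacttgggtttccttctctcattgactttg
Wwp2 chr8:110070591-110070890: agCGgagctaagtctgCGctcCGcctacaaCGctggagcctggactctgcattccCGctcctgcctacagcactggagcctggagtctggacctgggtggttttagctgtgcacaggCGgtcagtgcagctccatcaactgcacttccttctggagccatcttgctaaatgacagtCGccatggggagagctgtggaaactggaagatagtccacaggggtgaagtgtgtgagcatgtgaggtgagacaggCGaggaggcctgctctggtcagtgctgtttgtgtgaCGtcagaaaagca
Angptl7 chr4:147873718-147874017: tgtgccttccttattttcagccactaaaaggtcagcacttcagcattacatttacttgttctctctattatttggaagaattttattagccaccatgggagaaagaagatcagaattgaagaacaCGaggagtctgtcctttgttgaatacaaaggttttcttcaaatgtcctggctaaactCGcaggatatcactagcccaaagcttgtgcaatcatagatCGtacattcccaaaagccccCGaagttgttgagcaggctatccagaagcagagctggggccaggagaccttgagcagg
Gfra2 chr14:71290886-71291185: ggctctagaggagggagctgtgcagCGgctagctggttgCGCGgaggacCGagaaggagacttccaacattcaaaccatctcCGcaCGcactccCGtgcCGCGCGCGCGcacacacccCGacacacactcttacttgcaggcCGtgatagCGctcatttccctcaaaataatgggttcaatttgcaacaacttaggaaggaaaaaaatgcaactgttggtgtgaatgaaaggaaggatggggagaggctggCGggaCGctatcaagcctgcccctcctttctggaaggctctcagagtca
These 300 bases held 0 CpG dinucleotides at Cd34, 4 at Angptl7, 9 in Wwp2 and 17 at Gfra2. The observed to expected CpG ratio of the whole peak was 0.188 at Cd34, 0.22 at Angptl7, 0.280 in Wwp2 and 0.419 at Gfra2. All 4 were below the median of 0.458 over all EA-HFSCs peaks.

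CpG was sparse under the HFSC-only peaks as a group. Over the 288 peaks on assembled chromosomes, the median observed to expected ratio was 0.311 (0.0312 to 0.992), against 0.506 in the peaks shared with non-HFSCs. Their median GC content was 48.0%, against 50.8% in the shared peaks. Those with the middle within 3000 bp of a gene start had a median ratio of 0.419 and 53.6% GC, against 0.532 and 51.5% for all EA-HFSCs peaks so placed. Those farther away had 0.302 and 47.4% GC, against 0.347 and 48.9%. The CpG ratio was lower than over all EA-HFSCs peaks on both sides of the 3000 bp limit. The 71 peaks with H3K27me3 in a non-HFSC list had a median ratio of 0.422 and 53.6% GC, and the other 217 had 0.289 and 47.2%.

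Short motifs of factors known in the bulge were counted in the 300-base middles, on both strands. The NFI core TTGGCA, a part of longer NFI sites, was present in 66 of 288 HFSC-only middles (22.9%, 18.4 to 28.1%) and in 14.4% of all EA-HFSCs middles. Farther than 3000 bp from gene starts, the shares were 24.7% (19.6 to 30.6%) and 18.95%, just outside the interval. The LHX-type homeobox core TAATTA was present in 7.99% (5.38 to 11.7%) of the HFSC-only middles and 4.66% of all, and farther than 3000 bp in 8.94% (5.92 to 13.3%) and 7.15%, within the interval. The SOX core ACAAAG was in 22.6% (18.1 to 27.7%) and 17.7%, AGATAA of GATA factors in 13.5% (10.07 to 17.98%) and 9.14%, and GGAAAA of NFAT factors in 29.9% (24.9 to 35.4%) and 23.6%. Farther than 3000 bp from gene starts, these 3 shares over all EA-HFSCs peaks were within the intervals of the HFSC-only peaks, for GGAAAA barely, at 32.3% (26.7 to 38.6%) and 26.8%. RUNX TGTGGT (14.6% and 14.2%), TCF/LEF ATCAAAG (4.17% and 3.23%) and AP-1 TGANTCA (7.64% and 6.44%) differed by less than the intervals. GGGCGG, the core of SP/KLF sites and rich in CpG, was rarer, at 18.1% (14.0 to 22.9%) against 34.4%. It was also rarer farther than 3000 bp, at 12.8% (9.09 to 17.6%) against 22.8%. A match of letters is no binding site, and ACAAAG and ATCAAAG have letters in common.

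The scores describe the choice of the peaks, since H3K4me3 was used in the rule. The median EA-HFSCs score was 142 (50.3 to 3100), against 1124 in the peaks shared with non-HFSCs, and the median width was 1485 bp against 2924 bp. A score of at least 100 was reached by 198 peaks (68.5%, 62.9 to 73.6%) and a score of at least 500 by 26 (9.00%). In LC-HFSCs the median score was 65.6 (50.1 to 1735), and 63 peaks (21.8%) reached 100. The lowest score in an H3K4me3 list is 50, so most HFSC-only peaks lay near that limit in LC-HFSCs. Spearman's rho between the scores of the 2 HFSC lists over the 289 peaks was 0.319, given as a description of peaks called in lists of different depth and background. The LC-HFSCs peak covered a median of 88.5% of the EA-HFSCs peak, and at least 50% of it for 270 peaks.

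**Figure D1:**
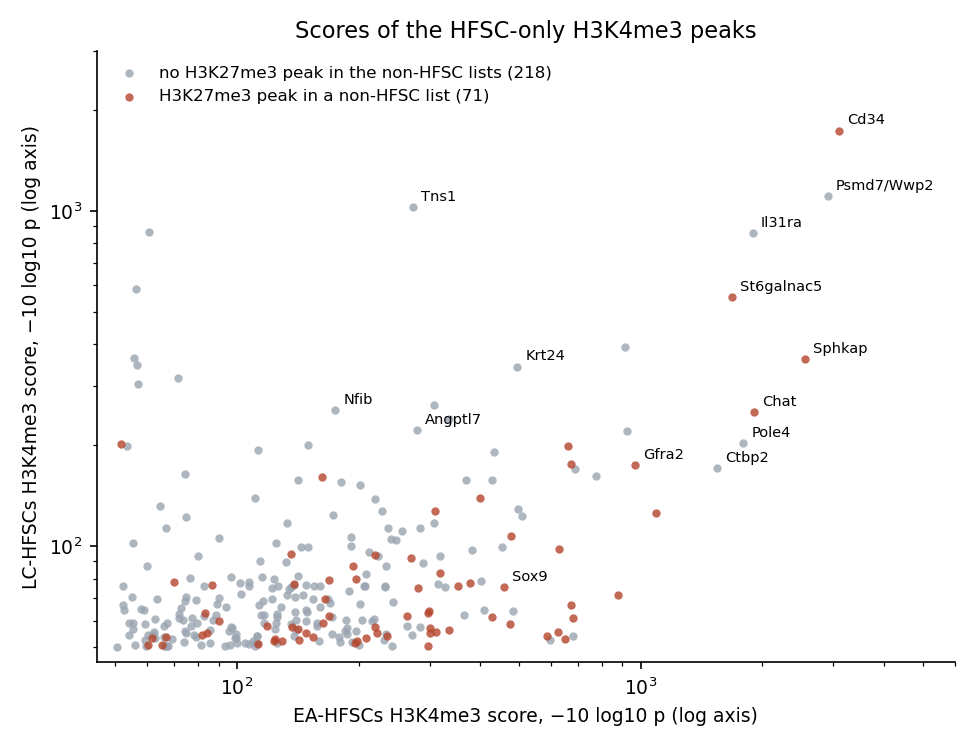
Each point is 1 of the 289 HFSC-only peaks, with its EA-HFSCs score on the horizontal and its LC-HFSCs score on the vertical log axis, coloured by whether an H3K27me3 peak of either non-HFSC list overlaps it. Most points lie near the lower limit of 50 in LC-HFSCs, and the Cd34 peak, with scores of 3100 and 1735, stands at the upper right.

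The highest score in both lists of HFSC-only peaks belonged to the one over the start and an intron of Cd34, chr1:196764265-196770584, with 3100 for EA-HFSCs and 1735 for LC-HFSCs. The EA-HFSCs value of 3100 was shared by 590 peaks of that list. CD34 is the surface protein used for the sort, so this peak checks the gate and is no finding. Its nearest non-HFSC H3K4me3 peak was 31310 bp away. The peak in Wwp2, which codes for a ubiquitin ligase, scored 2907 and 1108 on chr8:110067729-110073752, 41641 bp from the start of Psmd7, and had no H3K27me3 in any list. The start of Wwp2 itself had an H3K4me3 peak in all 4 populations.

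Il31ra, a subunit of the receptor for interleukin 31, had 2 HFSC-only peaks. One lay 9071 bp upstream of the start (chr13:113377859-113382022, scores 1894 and 856) and the other 211 bp into the gene (scores 163 and 161). No non-HFSC H3K4me3 peak lay within 60 kb of the upstream peak. Chat, which makes acetylcholine, also had 2, at 7512 bp (scores 1906 and 251) and 1691 bp (scores 478 and 107) inside the gene. Also among the 10 highest EA-HFSCs scores were Sphkap (2551 and 361), an anchoring protein for kinase A, Pole4 (1793 and 203), a subunit of DNA polymerase epsilon, and St6galnac5 (1685 and 554), a sialyltransferase of gangliosides. The Pole4 peak lay farther than 3000 bp from that start, so Pole4 is named only as the gene of nearest start. Ctbp2 (1542 and 171, the peak 106551 bp upstream), Fat3 (1089 and 126, 122807 bp upstream) and Gfra2 (966 and 174), a receptor for neurturin, completed these 10.

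In LC-HFSCs, Tns1 (1026) and Zfp827 (862) came next after Cd34 and Wwp2, and their EA-HFSCs scores were 273 and 60.6. Mov10 (585 and 56.1) and Ston1 (365 and 55.5) were of the same kind. For 15 of the 289 peaks, these among them, the LC-HFSCs peak ran on into a neighbouring non-HFSC peak. The Zfp827 peak was 27 bp from such a peak and shared 86 bp with the LC-HFSCs peak. The other 274 peaks had no such contact. Hnrnpa3 was also among the 10 highest in LC-HFSCs, with a peak 247647 bp upstream (391 in LC-HFSCs and 916 in EA-HFSCs).

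Just inside the rule, 4 peaks lay within 100 bp of a non-HFSC peak and 5 shared at most 100 bp with the LC-HFSCs peak. The closest were 2810407C02Rik, which touched a non-HFSC peak at a distance of 0 bp, and Zfp827 at 27 bp. Just outside it, 5 peaks were left out by an overlap of at most 100 bp, the smallest being 12 bp near Pdgfa and 31 bp near Zkscan14. For most HFSC-only peaks the nearest non-HFSC peak was distant, at a median of 32258 bp. It was within 1000 bp for 21 peaks (7.27%), within 10 kb for 89 (30.8%) and beyond 100 kb for 63 (21.8%).

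The peaks were spread over all chromosomes but Y. Chromosome 13 had 25 of 630 peaks shared by EA-HFSCs and LC-HFSCs (3.97%, 2.70 to 5.79%) and chromosome X had 3 of 423 (0.709%, 0.241 to 2.06%). These were the highest and the lowest share among chromosomes 1 to 19 and X. The 5 widest peaks were 5897 to 7884 bp wide. They were nearest to Fancc (7884 bp), G430095P16Rik (7028 bp, inside Nfix), Cd34, Psmd7 and Gfra2. These are widths in EA-HFSCs, and at Fancc, G430095P16Rik and Gfra2 the LC-HFSCs list covered less than 50% of the peak. Peaks lay up to 100 kb from each other in 14 groups with 29 peaks in all, of which the largest held 3.

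Most HFSC-only peaks lay away from promoters. By their middles, 27 peaks (9.34%, 6.5 to 13.3%) were in a promoter, taken as the 1000 bp before a transcript start and the 100 bp after it, where all EA-HFSCs peaks have 24.4%. Another 23 (7.96%) were in exons, where all have 12.0%, and 114 (39.4%, 34.0 to 45.2%) in introns, where all have 40.2%. The remaining 124 (42.9%, 37.3 to 48.7%) lay between genes, where all have 23.2%, and 1 was on unplaced sequence. The median distance to the nearest start of a protein-coding gene was 39405 bp, against 1290 bp for all EA-HFSCs peaks and 650 bp for the peaks shared with non-HFSCs. Within 3000 bp lay 53 of 288 (18.4%, 14.4 to 23.3%), against 55.9% of all and 74.1% of the shared peaks. Of the 26 that scored 500 or more, 14 were within 3000 bp (53.8%, 35.5 to 71.2%), against 83.7% of all EA-HFSCs peaks with such a score. The share near gene starts was higher at high scores in both sets, and it was 32.3% of the 99 peaks found when every list was held to a score of 100. More than 100 kb from any start lay 82 peaks (28.5%), against 7.65%. The farthest was 581080 bp from Tcfec, followed by Lphn3 (570287 bp), 4930473A06Rik (562106 bp), Mgmt (515468 bp) and Ofcc1 (513605 bp).

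**Figure D2:**
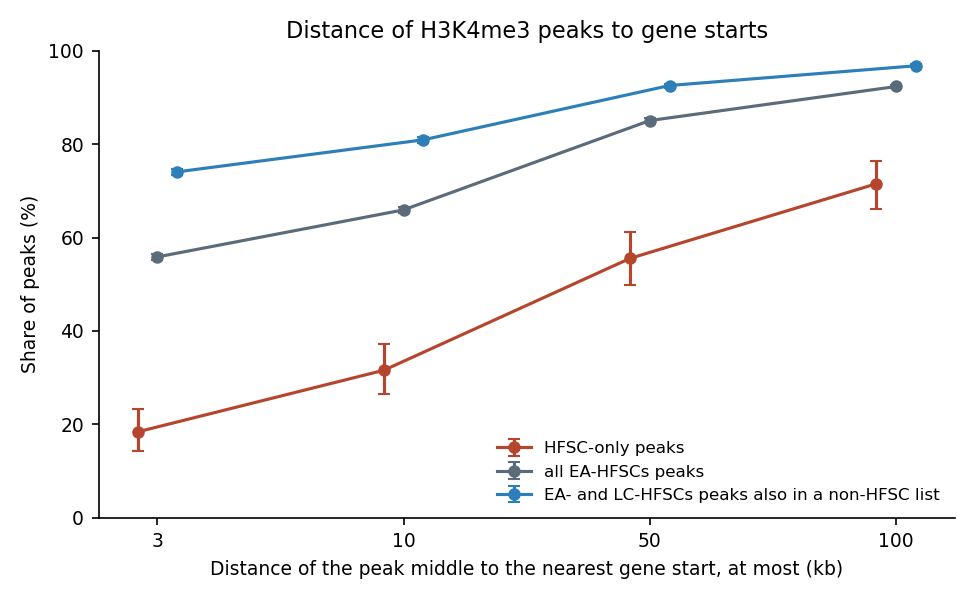
The share of peaks whose middle lies within 3, 10, 50 or 100 kb of the nearest gene start, with 95% Wilson intervals, for the 289 HFSC-only peaks (288 placed), all EA-HFSCs peaks and the peaks shared with LC-HFSCs and a non-HFSC list. The HFSC-only peaks are lowest at every distance, with 18.4% within 3 kb and 71.5% within 100 kb.

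For the 235 HFSC-only peaks farther than 3000 bp from a gene start, the nearest gene was mostly marked in every population. Its start had an H3K4me3 peak in all 4 populations for 163 (69.4%, 63.2 to 74.9%), against 66.8% of all EA-HFSCs peaks so placed, which differed by less than the interval. In no population was it marked for 51 (21.7%, 16.9 to 27.4%), against 23.1%. It was marked in an HFSC list and in neither non-HFSC list for 8 (3.40%, 1.73 to 6.57%), against 2.20%, also within the interval. Named because of their small number, and after their values were seen, these were near 1700001L19Rik, 4930563I02Rik, Chat, Fgfr1, Hs3st2, Il31ra, Sgms2 and Syt2. At Chat, Il31ra and Sgms2 an HFSC-only peak itself reaches within 3000 bp of the start, so that the result there follows in part from the rule. Fgfr1 is listed under 2 gene entries, of which 1 has a start marked in all 4 populations.

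At gene starts, 63 genes (0.282% of 22367) had an HFSC-only peak within 3000 bp, and 43 of them had no non-HFSC H3K4me3 peak in that window. Gfra2, St6galnac5, Sphkap and Cd34 are among the 43, with Col6a2, Vit, Angptl7, Sgms2, Sorbs2, Hoxd8, Sorcs3, Tmem196, Fads2 and the imprinted Peg10. Krt24, a keratin (scores 493 and 343), Hoxd3 and Sgce, which shares its peak with Peg10, were also among them and were picked after their values were seen. In total 275 genes were nearest to a peak, and 11 of them to more than 1. Sox9 and Shisa2 had 3 each, and Ank, Bckdhb, Chat, Hnrnpa3, Il31ra, Odz3, Wif1, 4931429P17Rik and Nol4 had 2.

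An H3K27me3 peak of the non-HFSCs overlapped about 1 in every 4 HFSC-only peaks. Non-EA-HFSCs had one at 67 (23.2%, 18.7 to 28.4%), where all EA-HFSCs H3K4me3 peaks have 15.1%. Non-LC-HFSCs had one at 44 (15.2%, 11.5 to 19.8%), where all have 11.3%, and that share lies just below the interval. Either list had one at 71 (24.6%, 20.0 to 29.8%; all 15.6%) and both at 40 (13.8%, 10.3 to 18.3%; all 10.8%), the last within the interval. Of the HFSCs themselves, EA-HFSCs had it at 31 (10.7%, 7.66 to 14.8%), near the 10.2% of all. LC-HFSCs had it at 16 (5.54%, 3.44 to 8.80%), where all have 3.00%, below the interval. Either HFSC list had it at 32 (11.1%; all 10.3%), both at 15 (5.19%; all 2.93%), and these 15 are the peaks with it in all 4 lists (all 2.84%). The LC-HFSCs list for H3K27me3 holds 1909 peaks and the EA-HFSCs list 25534, so that the shares cannot be compared between these populations. An H3K27me3 peak in a non-HFSC list and in neither HFSC list was found at 39 HFSC-only peaks (13.5%, 10.03 to 17.9%; all 6.08%). Of the non-HFSC lists, the nEA-HFSCs list alone had one at 27 (9.34%; all 4.25%) and the nLC-HFSCs list alone at 4 (1.38%; all 0.498%). The reverse, an HFSC list and neither non-HFSC list, was found at 0 of 289, which allows a share of up to 1.04% (3 counts of the total, with a Wilson upper limit of 1.31%), where all have 0.805%. No H3K27me3 in any list was found at 218 (75.4%, 70.2 to 80.0%; all 83.6%). These shares depend on the choice of peaks. With equal list sizes, 527 peaks passed the rule, and 41.4% (37.2 to 45.6%) of them had H3K27me3 in either non-HFSC list. All EA-HFSCs peaks kept in that setting have 14.7%. Of the 289 peaks, 111 were in that set, and its other peaks overlap a non-HFSC H3K4me3 peak outside the shortened lists.

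H3K27me3 was most frequent at HFSC-only peaks near gene starts. Within 3000 bp of a start, nEA-HFSCs H3K27me3 was at 29 of 53 HFSC-only peaks (54.7%, 41.5 to 67.3%), against 16.7% of all EA-HFSCs peaks so placed. There, nLC-HFSCs H3K27me3 was at 24 (45.3%, 32.7 to 58.5%; all 12.9%) and EA-HFSCs H3K27me3 at 22 (41.5%, 29.3 to 54.9%; all 12.1%). Farther away the shares were 16.2% (12.0 to 21.4%; all 13.0%) in nEA-HFSCs, 8.51% (5.58 to 12.8%; all 9.24%) in nLC-HFSCs and 3.83% (2.03 to 7.12%; all 7.83%) in EA-HFSCs. Among the 26 peaks of score 500 or more, 15 had H3K27me3 in nEA-HFSCs (57.7%, 38.9 to 74.5%), against 10.4% of all EA-HFSCs peaks with such a score. Where nEA-HFSCs H3K27me3 was present, it covered a median of 100% of the H3K4me3 peak, and 38 of the 67 peaks were covered whole.

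**Figure D3:**
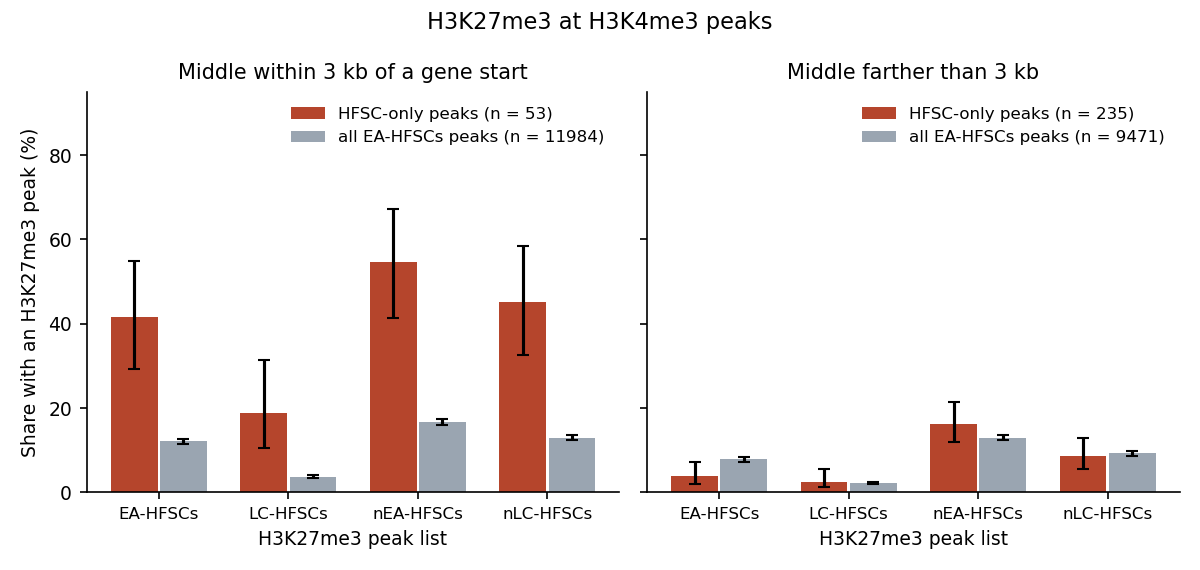
Bars give the share of H3K4me3 peaks that overlap an H3K27me3 peak of each population, with 95% Wilson intervals, for HFSC-only peaks (red) and all EA-HFSCs peaks (grey), split at 3000 bp from a gene start. The HFSC-only bars are higher than the grey ones in all 4 lists near gene starts, with 54.7% against 16.7% in nEA-HFSCs, whereas farther away the nEA-HFSCs bars are 16.2% and 13.0% and the EA-HFSCs bar is the lower one, at 3.83% against 7.83%.

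By H3K4me3 score, peaks with H3K27me3 in both non-HFSC lists were led by Cd34 (H3K27me3 scores 271 in nEA-HFSCs and 120 in nLC-HFSCs, none in HFSCs). At the higher-scoring Chat peak the mark was present in nEA-HFSCs (813) and nLC-HFSCs (314 over its middle, and 869 for a peak at its edge). In LC-HFSCs (99.2) it covered 1.42% of that Chat peak, while the other Chat peak had it in all 4 lists. St6galnac5 (472 and 146), Fat3 (1110 and 283), Gfra2 (1772 and 1171), Tmem196 (145 and 63.7), Sorcs3 (829 and 437) and Fads2 (1027 and 577) had it in EA-HFSCs too. Sorcs3 codes for a sorting receptor and Fads2 for a fatty acid desaturase. Peg10 had it in nEA-HFSCs (127) and nLC-HFSCs (79.3) and not in HFSCs. Hoxd8 and Hoxd3, homeobox genes of 1 cluster with HFSC-only peaks over exons, had H3K27me3 in all 4 lists. The peak nearest to Xlr, 178025 bp upstream, had it in EA-HFSCs (121), nEA-HFSCs (103) and nLC-HFSCs (45.1).

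In 13 HFSC-only peaks (4.50%, 2.65 to 7.54%; all 2.60%) H3K27me3 was listed in both non-HFSC populations and in neither HFSC population. They include Cd34, Peg10 and the Sox9 peak 28913 bp downstream of the start. The others, named after their values were seen, were nearest to Begain, Ctnnd2, Aass, Arid2, Lemd1, 4930447A16Rik, Ttc30a1, Shisa2, Cer1 and Shb. The Cd34 peak was covered by H3K27me3 over 49.6% of its length in nEA-HFSCs and 27.7% in nLC-HFSCs. Over the Sox9 peak the H3K27me3 scores were 40.5 in nEA-HFSCs and 44.1 in nLC-HFSCs, near the lowest listed score of 40. The nLC-HFSCs one covered only a part of the Sox9 peak. Around the Sox9 peak, within 60 kb on each side, H3K27me3 peaks numbered 12 in nEA-HFSCs (50.5 kb) and 16 in nLC-HFSCs (22.9 kb) and 0 in both HFSC lists. Around the upstream Il31ra peak they numbered 10 in nEA-HFSCs, 5 in nLC-HFSCs, 2 in EA-HFSCs and 0 in LC-HFSCs. None of these overlapped the upstream Il31ra peak itself. Their scores ran from 41.3 to 158 in nEA-HFSCs and from 41.8 to 102 in nLC-HFSCs.

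**Figure D4:**
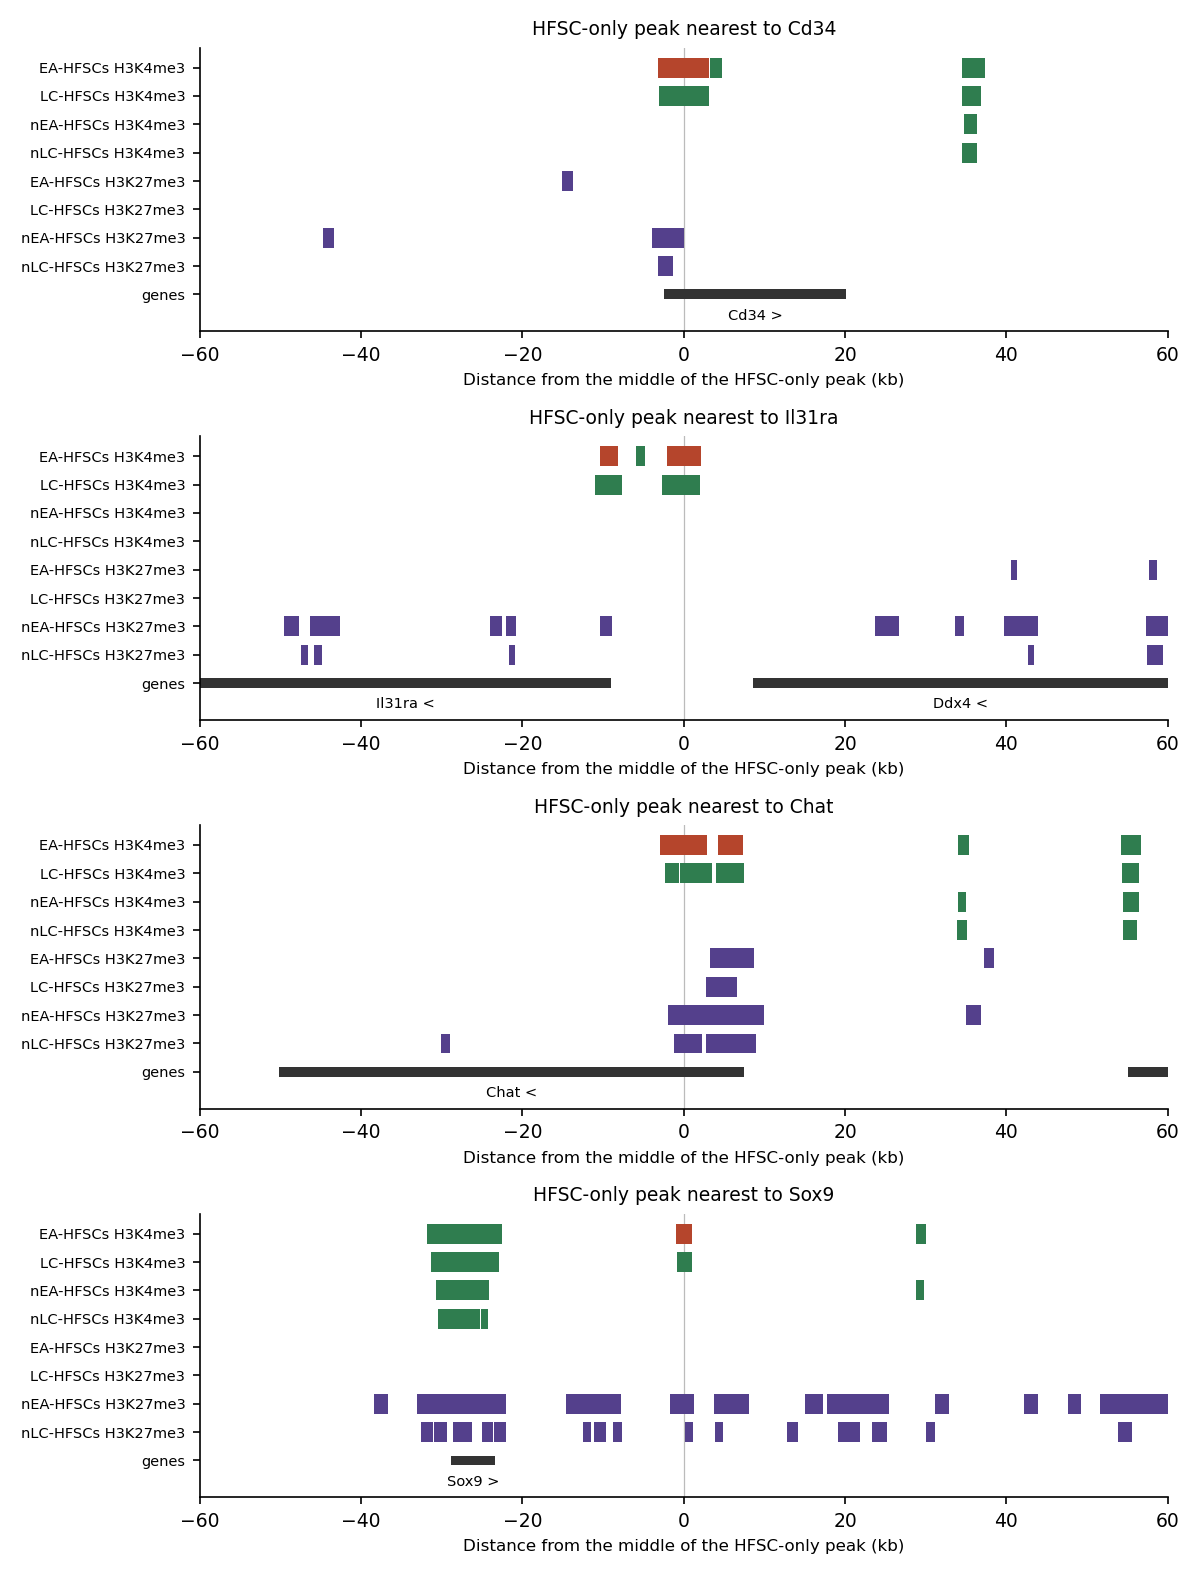
Peaks of H3K4me3 (green, HFSC-only peaks red) and H3K27me3 (purple) in the 4 populations and genes (black, arrow for the strand) within 60 kb of the HFSC-only peak of highest score at Cd34, Il31ra, Chat and Sox9, by distance in kb from its middle. The Sox9 start carries H3K4me3 in all 4 rows, the peak at 0 kb in the HFSC rows alone, and H3K27me3 peaks (12 and 16) stand in the non-HFSC rows.

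H3K9me3, the mark of constitutive heterochromatin, was rare at the HFSC-only peaks. EA-HFSCs had it at 26 (9.00%, 6.21 to 12.9%), where all EA-HFSCs H3K4me3 peaks have 42.7%. Near gene starts the shares were 30.2% (19.5 to 43.5%) and 63.1%, and farther away 3.83% (2.03 to 7.12%) and 16.99%. The share over all peaks was higher at higher H3K4me3 scores, with 68.0% at scores of at least 500, where the HFSC-only peaks had 34.6% (19.4 to 53.8%). The nLC-HFSCs list had it at 6 (2.08%, 0.955 to 4.45%; all 8.77%), the nEA-HFSCs list at 4 (1.38%; all 0.735%) and the LC-HFSCs list at 1 (0.346%; all 0.0605%), which is the peak on unplaced sequence. Any list had it at 30 (10.4%, 7.37 to 14.4%; all 44.7%).

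Of the lists examined, that of bulge surface and secreted markers had the highest share of genes with an HFSC-only peak. It is a hand-written list, drawn up with earlier results of these data known. Its rank is therefore a description and not independent of the data. A gene counted as assigned a peak when one lay within 3000 bp of its start, overlapped its body or had it as the nearest start, which holds for 325 genes (1.45% of 22367). Of the 24 genes of this bulge marker list, 7 were assigned one (29.2%, 14.9 to 49.2%). These were Cd34, Angptl7, a secreted angiopoietin-like protein, Postn, the matrix protein periostin, Krt15, the keratin of bulge cells, Wif1, a secreted Wnt inhibitor, Pdzrn3, a ubiquitin ligase, and Lgr5, a receptor for R-spondins. Without Cd34, the sorting marker, 6 remain. Krt15 and Pdzrn3 are counted in this list although neither codes for a surface or secreted protein. At the start itself, Cd34, Angptl7 and Postn had one (12.5%, 4.34 to 31.0%), where all genes have 0.282%. At Angptl7 the peak (scores 279 and 221) covered the start, which lies inside Mtor, and no non-HFSC H3K4me3 peak was nearer than 48870 bp. At Postn the peak (111 and 51.6) lay 2380 bp upstream, beside a start marked in all 4 populations. The Krt15 peak (196 and 51.3) lay 5770 bp upstream of the start, inside the neighbouring gene Krt19, with H3K27me3 in nEA-HFSCs (285). The Krt15 start itself had H3K4me3 in all 4 populations. Wif1 had a peak in an intron at 55757 bp (148 and 64.3) and another beyond the gene at 127459 bp (136 and 94.7), while its start carried H3K4me3 and H3K27me3 in all 4 populations. The Lgr5 peak (201 and 50.8) lay in an intron, where the nearest start is that of RP23-43M12.1, and it is named from the list and not as nearest gene. The Pdzrn3 peak (148 and 59.9) lay 48933 bp upstream. The starts of Lgr5 and Pdzrn3 had H3K4me3 in all 4 populations and H3K27me3 in nEA-HFSCs and nLC-HFSCs only.

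Of 18 transcription factors of the bulge, Sox9 and Nfib were assigned a peak (11.1%, 3.10 to 32.8%). SOX9 is required to keep the bulge stem cells. Its 3 peaks lay 28913 bp (458 in EA-HFSCs and 75.3 in LC-HFSCs), 122080 bp (67.2 and 59.0) and 383007 bp (202 and 67.2) downstream of the start, which had H3K4me3 in all 4 populations and H3K27me3 in both non-HFSC lists only. The Nfib peak (175 and 254) lay in an intron, 379051 bp from the annotated start. NFIB is a factor of bulge cells that acts on the neighbouring melanocyte stem cells. Lhx2, Nfatc1, Tcf7l1, Runx1 and the other members had none.

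Of 52 Wnt pathway genes 4 (7.69%, 3.03 to 18.2%) were assigned one: Sfrp4, a secreted inhibitor with a peak over its promoter (154 and 53.4), an nLC-HFSCs H3K4me3 peak in the same window and H3K27me3 in nEA-HFSCs (216) and EA-HFSCs (155), the receptor Ror2, Wif1 and Lgr5. Of 51 BMP and TGF-β genes there were 3 (5.88%, 2.02 to 15.9%), the receptor Acvr2a, the latent TGF-β binding protein Ltbp1 and the transducer Smad1, none at the start. Of 24 FGF genes only the receptor Fgfr1 had one (4.17%, 0.739 to 20.2%), 73044 bp upstream (369 and 158). Of 65 axon guidance genes Plxnb1, a semaphorin receptor, had one (1.54%), near the background share. The intervals of the Wnt and the BMP and TGF-β lists lay above the 1.45% of all genes, and those of the FGF and axon guidance lists include it. Of 68 matrix and adhesion genes there were 6 (8.82%, 4.11 to 17.9%): Col6a2 (927 and 221 at the start), Col6a1, Postn, Col1a2, Frem1 and Itga1. Col6a1 and Col6a2 code for chains of collagen VI and are neighbours. Genes of these lists are long, with a median of 89.3 kb in the matrix list against 15.4 kb for all protein-coding genes and 44.4 kb in the list of bulge surface markers. The part of gene length in these counts was not tested.

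No gene was assigned one among 16 suprabasal, 18 matrix and hair shaft, 18 endothelial, 10 muscle, 12 Schwann and neuron, 16 leukocyte and 5 Merkel cell markers. These lists are short, with upper limits from 17.6 to 43.4%, so that a difference from the 1.45% of all genes was not detectable in them. They also leave genes out. The suprabasal list holds the transglutaminase gene Tgm3 and not Tgm1, which was picked after its values were seen. Tgm1 had an HFSC-only peak within 3000 bp of its start, no non-HFSC H3K4me3 peak in that window and no H3K27me3 there in any list. The basal epidermis and outer root sheath list had Krt6a (335 and 239) and Gata6 (2 of 15), the fibroblast list Col1a2 and Crabp1 (2 of 16), the sebaceous list Prdm1 (1 of 11) and the melanocyte list Dct (1 of 10). The intervals of these 4 lists, from 1.62 to 40.4%, lay above the 1.45% of all genes as well, and of their genes only Krt6a had a peak at the start. Krt6a is a keratin of the companion layer and of the inner bulge. Its start was also marked in nEA-HFSCs. Of 18 endothelial markers, an H3K4me3 peak was at the start of 9 in EA-HFSCs, 4 in LC-HFSCs, 8 in nEA-HFSCs and 5 in nLC-HFSCs, and of 16 leukocyte markers at 1 in each population. The share of such cells in the sorted samples was not tested.

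**Figure D5:**
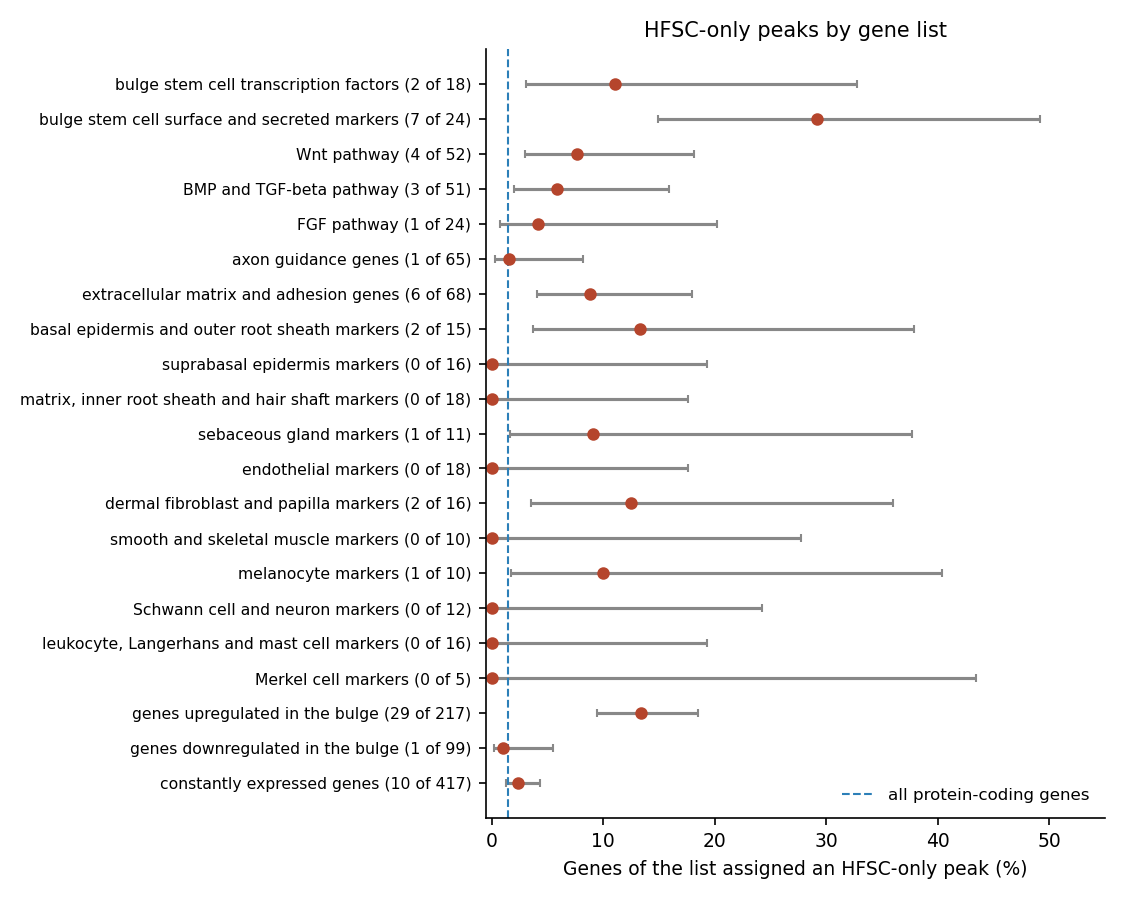
Each point is the share of a gene list, matched genes only, that was assigned an HFSC-only peak, with its 95% Wilson interval. All lists named here are shown except the non-lineage genes. The count stands beside the name, and a dashed line marks the share of all protein-coding genes, 1.45%. The bulge surface and secreted markers (29.2%) are highest, and the whole interval also lies above the line for lists of other cells with 1 or 2 assigned genes, such as the fibroblast (2 of 16) and melanocyte (1 of 10) markers.

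Genes that the study lists as upregulated in the bulge at the mRNA level throughout the hair cycle (217 matched) were assigned an HFSC-only peak in 29 cases (13.4%, 9.47 to 18.5%). Among 99 genes downregulated in the bulge there was 1, Ikzf2 (1.01%, 0.179 to 5.50%), and among 417 constantly expressed genes 10 (2.40%, 1.31 to 4.36%). Among 222 matched genes of the study's non-lineage set there was 1 (0.450%, 0.0796 to 2.51%). Over all genes the share is 1.45%, which lies within the intervals of these 3 sets. The upregulated genes are longer, with a median of 57.9 kb, than the downregulated (37.1 kb) and constantly expressed genes (29.4 kb). Counting only peaks within 3000 bp of the start, which does not depend on gene length, left 8 of 217 (3.69%, 1.88 to 7.10%), 0 of 99 and 1 of 417, where all genes have 0.282%. The study chose this list on mRNA of cells sorted in the same way, so it is not independent of the CD34 gate.

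The 8 were Cd34, Col6a2, Hoxd8, Il31ra, Krt6a, Sgms2, Sorbs2 and Vit. At 7 of them, all but Krt6a, no non-HFSC H3K4me3 peak lay in the window. Vit codes for the matrix protein vitrin (139 and 76.3), Sgms2 for a sphingomyelin synthase (111 and 140) and Sorbs2 for an adaptor of the cytoskeleton (585 and 54.0). H3K27me3 lay at the start in nEA-HFSCs for Cd34, Il31ra, Hoxd8 and Sorbs2, and in no list for Col6a2, Vit, Sgms2 and Krt6a. Among all 43 genes with an HFSC-only peak and no non-HFSC peak at the start, H3K27me3 was there in nEA-HFSCs for 28 (65.1%, 50.2 to 77.6%), in nLC-HFSCs for 23 (53.5%, 38.9 to 67.5%), in EA-HFSCs for 20 (46.5%, 32.5 to 61.1%) and in LC-HFSCs for 9 (20.9%). Over the 13508 genes with an EA-HFSCs H3K4me3 peak at the start the shares were 17.2%, 13.4%, 13.1% and 3.71%.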

How the data were processed

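The authors aligned single-end reads to mm9 with Bowtie2, pooled the reads of repeat experiments and called peaks with MACS 1.4 against IgG of the same population. The deposited lists hold each peak's position and its score, which the authors' peak caller set to the negative log10 of the p-value multiplied by 10, with lowest values of 50 for H3K4me3 and 40 for the other marks. The series has 16 samples, and 4 of them are IgG with no list. The lists do not give read depth. The study's methods give uniquely mapped reads per sample only as ranges, with more in LC-HFSCs than in EA-HFSCs, so no test on reads was made.

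Overlaps (at least 1 bp), nearest gene starts and positions were found in Python 3.11.15 (scipy 1.17.1, numpy 2.4.6) on 22367 protein-coding genes of the GENCODE mouse annotation on NCBIM37, the assembly of mm9. Coordinates are 1-based. Sequence was read from the same assembly. Overlap and membership were tested on 20000 simulated peaks, with 3 of 3 steps recovered exactly, and overlaps were checked against bedtools 2.31.1. Samples were grouped by their labels. Shares have 95% Wilson intervals, which treat peaks as independent.

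The peaks, the gene lists and the rule for names were chosen with earlier results of these data known. Named by rule were the 10 peaks of highest EA-HFSCs and LC-HFSCs score, the 10 highest with H3K27me3 in both non-HFSC lists or in either HFSC list, genes with most peaks, genes of the fixed lists, peaks at the limit of the rule, the 5 widest and 5 farthest peaks, and genes of the upregulated list with a peak at the start. Other names are marked as chosen after their values were seen. A few items that the rule names are not reported here. Alternatives were a stricter score, other overlap and distance rules, equal list sizes, merged peaks, autosomes only, LC-HFSCs as the starting list, any transcript start, and other overlaps for H3K27me3.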

Additional observations from a re-analysis of the deposited data

How the results depend on the processing

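No paired analysis was possible because each population and mark has 1 list and no result comes from a test. The number of HFSC-only peaks stayed within 1.5 times of 289 under 7 of the 10 settings, from 200 to 287. It was 99 with every list held to scores of 100 or more (49 of them among the 289), 49 with that asked of the HFSC lists alone, and 527 with lists of equal size made of top scores (111 of them among the 289). With the first of these, 32.3% of the peaks lay within 3000 bp of a gene start (18.4% before; all EA-HFSCs peaks with such a score 66.2%), 30.3% between genes (42.9% before; all 18.1%), and 29.3% and 22.2% had nEA-HFSCs and nLC-HFSCs H3K27me3, where all had 12.0% and 9.00%. With the second, 28.6% lay within 3000 bp and 34.7% between genes. With equal list sizes, 41.1% lay within 3000 bp (all EA-HFSCs peaks kept there 73.9%) and 29.8% between genes (all 13.7%), 40.4% had nEA-HFSCs (all 14.3%), 32.8% nLC-HFSCs (all 10.7%) and 41.4% either H3K27me3 (all 14.7%). Any transcript start in place of the gene start put 27.4% within 3000 bp. The peaks of the sets of 99 and 527 that are not among the 289 overlap a non-HFSC H3K4me3 peak left out by that setting. The cause of the changes in these shares was not tested. In the other 52 comparisons the value stayed within the interval or within 1.5 times. The peaks at Cd34, Wwp2, Sphkap, Chat and St6galnac5 and the upstream Il31ra peak were HFSC-only under all 10 settings. So were the peaks with Pole4 and Fat3 as the gene of nearest start. Of the settings, 2 were chosen after seeing the data. These were a 10 kb distance to non-HFSC peaks and no contact of the LC-HFSCs peak with a non-HFSC peak. Of all 289 peaks, 29 were kept under every setting. Ctbp2 was lost with the 10 kb distance, and Gfra2 when the LC-HFSCs peak had to cover 50% of the peak. The other Il31ra peak was lost with equal list sizes.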
